A study of Mus musculus with 2 samples.

Results

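The genes followed are 6 cytokine genes by which cells of the lung can signal to leukocytes: Il6, Lif, Il33, Il1a, Csf1 and Tnfsf13b. They were taken by gene symbol, as 6 of the 27998 genes in the tables of both libraries, and each symbol matched 1 row. The tables come from CD45- cells of mouse lung, that is, cells sorted for lack of the leukocyte marker CD45. Labelling-4T1 cells had been injected intravenously and the lungs were collected at day 7. The 4T1 line comes from a mammary carcinoma of the mouse and seeds the lung from the blood. As generally described, the labelling form of the line releases an mCherry protein that neighbouring cells take up, so that cells near tumour cells can be sorted by colour. The labels name 1 library Cherry_Positive and the other Cherry_Negative and say no more about the gate. They do not give the strain, the age, the number of animals pooled, or whether these mice had been irradiated, although the title of the series concerns radiation. With 1 library per group, no difference below has a replicate check, no test was made, and every interval covers counting error only.

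The 6 genes fall into 4 families. IL-6 and LIF belong to the family of cytokines that signal through the shared receptor chain gp130, encoded by Il6st, and activate STAT3. IL-6 drives acute phase proteins and the maturation of myeloid and lymphoid cells, and LIF was named for its action on leukaemia cells and acts on many stromal cells. IL-33 and IL-1 alpha belong to the IL-1 family and are stored in the cell and released on damage: IL-33 acts through ST2, encoded by Il1rl1, on innate lymphoid cells, regulatory T cells and mast cells, and IL-1 alpha acts through Il1r1 on almost every cell type. CSF1 keeps monocytes and macrophages alive through Csf1r. Tnfsf13b encodes BAFF, the survival factor of B cells. In the lung, fibroblasts are a known source of Il6, alveolar type 2 epithelial cells (AT2 cells, which make surfactant) of Il33, and alveolar capillaries contain a general type and a wider, Car4-bearing type.

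All 6 genes are protein coding. In GENCODE M21 (GRCm38, the build called mm10 in the submitters' notes) Il6 lies at chr5:30013114-30019981 on the plus strand, Lif at chr11:4257557-4272514 on the plus strand and Il33 at chr19:29925114-29960718 on the plus strand. Il1a lies at chr2:129299610-129309972 on the minus strand, Csf1 at chr3:107741048-107760469 on the minus strand and Tnfsf13b at chr8:10006467-10039072 on the plus strand. No annotated gene overlaps Il6, Lif, Il33 or Csf1. The antisense transcripts Gm14023 and Gm44789 overlap Il1a and Tnfsf13b, and whether the counting used strand is not given in the sources used here. RefSeq (GRCm38.p6) lists 1 start site each for Il6, Lif, Il1a and Csf1 and 2 each for Il33 and Tnfsf13b, and reads from the 3' end do not show which start was used. The 250 bases before the start are printed for Il6, Lif and Csf1, because these 3 genes were higher in Cherry_Positive alveolar fibroblasts (below) and their windows hold a match to the NF-kB consensus. Capitals mark matches to the NF-kB consensus or to AP-1 (TGANTCA), C/EBP (TTGNNCAA) or GAS (TTCNNNGAA), on either strand, and no match overlapped another.
Il6, chr5:30012864-30013113, plus strand: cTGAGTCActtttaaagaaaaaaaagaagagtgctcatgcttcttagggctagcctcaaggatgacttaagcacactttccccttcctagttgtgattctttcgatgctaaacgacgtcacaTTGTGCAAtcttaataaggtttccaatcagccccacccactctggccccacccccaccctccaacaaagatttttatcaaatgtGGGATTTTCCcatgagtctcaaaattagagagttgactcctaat
Lif, chr11:4257318-4257567, plus strand: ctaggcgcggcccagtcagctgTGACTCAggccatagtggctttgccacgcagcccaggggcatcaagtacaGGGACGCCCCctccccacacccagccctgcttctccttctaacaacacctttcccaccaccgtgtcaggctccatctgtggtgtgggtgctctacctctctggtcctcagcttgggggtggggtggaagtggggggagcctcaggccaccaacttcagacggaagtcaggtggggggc
Csf1, chr3:107760470-107760719, minus strand: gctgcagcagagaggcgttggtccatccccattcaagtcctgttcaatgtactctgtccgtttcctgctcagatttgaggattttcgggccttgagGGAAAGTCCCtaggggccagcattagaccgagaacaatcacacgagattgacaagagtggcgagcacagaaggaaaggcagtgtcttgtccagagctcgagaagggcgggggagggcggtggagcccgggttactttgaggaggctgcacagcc
The Il6 window held an AP-1 match that begins 249 bases before the start, a C/EBP match at 128 and an NF-kB match at 44. The Lif window held an AP-1 match at 228 and an NF-kB match at 178, and the Csf1 window an NF-kB match at 154. Il1a had an AP-1 match at 12, 1 of the 2 Tnfsf13b windows had an AP-1 match at 127, and neither Il33 window had a match to any of the 4. Of 32851 RefSeq promoters of the same length, 7.25% hold the NF-kB consensus, 6.75% AP-1, 5.65% C/EBP and 7.02% GAS. A match describes letters in this window and shows no binding.

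The Cherry_Positive library held 10094853 UMIs (unique molecular identifiers, each standing for 1 captured RNA molecule) in 1826 barcodes, and Cherry_Negative 11632459 in 2861. After filters on genes and mitochondrial reads and removal of called doublets, 1766 and 2804 cells were kept, with medians of 4348 and 3000.5 UMIs. Cells of both libraries were clustered together without the 6 genes, and the clusters were named by marker genes. Each class name below means cells like that type. Most Cherry_Positive cells were fibroblasts and most Cherry_Negative cells were capillary or AT2 cells, so a sum over a whole library mixes different cells, and the libraries were compared only within the 6 classes that had at least 50 cells in each. These held 865 Cherry_Positive against 467 Cherry_Negative alveolar fibroblasts, 129 against 114 adventitial fibroblasts, 243 against 132 myofibroblasts, 63 against 51 pericytes, 119 against 900 general capillary cells and 82 against 304 Car4 capillary cells. The sort for CD45- cells left 33 and 29 leukocytes. The 5 general leukocyte markers summed to between 3.60 and 11.3 counts per 1000000 UMIs (CPM) in the fibroblast and capillary classes and to 7.57 and 30.2 CPM in pericytes, against 4552 and 5362 CPM in the leukocytes. The libraries shared 13 barcodes, all 13 kept in both, of which 4 fell in the same class.

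Il6 was a fibroblast transcript in both libraries. In Cherry_Positive its level was 598 CPM (95% interval 547 to 652) in adventitial fibroblasts, 551 (529 to 573) in alveolar fibroblasts and 309 (278 to 341) in myofibroblasts. The first and second of these intervals overlap, and that of myofibroblasts lies below both. In Cherry_Negative the order was adventitial fibroblasts at 423 CPM (371 to 481), myofibroblasts at 229 (182 to 284) and alveolar fibroblasts at 187 (167 to 210), where the last pair overlap. Outside fibroblasts no Cherry_Positive class with at least 20 cells exceeded 30.2 CPM, the level of pericytes. Cherry_Negative showed 44.3 CPM in venous cells (17 UMIs in 7 cells), 18.9 in AT2 cells, 102 in 20 smooth muscle cells and 111 in leukocytes. The last rests on 15 UMIs, of which 80.0% came from 1 cell, and 1 cell held 88.9% of the 9 smooth muscle UMIs. Cells were also thinned to 2000 UMIs, so that cells of unequal depth can be compared. Cells with fewer UMIs were left out of all thinned values, 34 in Cherry_Positive and 631 in Cherry_Negative. This kept 847 and 405 alveolar fibroblasts. Of these, 27.3% held an Il6 UMI in Cherry_Positive against 11.4% in Cherry_Negative (37.1% and 13.5% unthinned, at median depths of 4510 and 3127 UMIs). In general capillary cells, set beside them as a class with little Il6, the thinned shares were 1.77% and 0.360%, at median depths of 3167 and 2233. They were not the lowest class, as pericytes and AT1 cells of Cherry_Negative held no Il6 UMI.

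Lif was sparse and lay mainly in alveolar fibroblasts and myofibroblasts of Cherry_Positive. Its level there was 74.3 CPM (66.6 to 82.6) and 45.7 (34.6 to 59.2), and every other Cherry_Positive class with at least 20 cells was at 17.0 CPM or lower. No Cherry_Negative class with at least 20 cells exceeded 13.97 CPM, the level of myofibroblasts, and the intervals of the leading Cherry_Negative classes all overlap. A Lif UMI was seen in 8.74% of thinned Cherry_Positive alveolar fibroblasts and in 1.73% of those of Cherry_Negative (17.5% and 2.78% unthinned). General capillary cells gave thinned shares of 2.65% and 0.180%, while arterial and venous cells of Cherry_Negative held no Lif UMI. The Cherry_Negative share of alveolar fibroblasts, from 7 of 405 cells, was above that of capillary cells of its own library. It was below that of Cherry_Positive capillary cells, which belong to another library with its own free RNA.

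Among classes with at least 20 cells, Il33 was highest in AT2 cells and adventitial fibroblasts in both libraries, in opposite order. AT2 cells held it at 175 CPM (162 to 189) in Cherry_Negative and at 178 CPM in the 22 AT2 cells of Cherry_Positive, the latter from 32 UMIs. Adventitial fibroblasts held 477 CPM (432 to 525) in Cherry_Positive and 88.2 (65.3 to 117) in Cherry_Negative. AT2 cells thus ranked above adventitial fibroblasts in Cherry_Negative and below them in Cherry_Positive, with no overlap of the intervals in either library. Alveolar fibroblasts held 28.5 CPM (23.8 to 33.8) against 1.88 (0.387 to 5.49), the latter from 3 UMIs. Free AT2 RNA was the larger in Cherry_Negative, where AT2 markers summed to 1981 CPM in alveolar fibroblasts against 196 CPM in Cherry_Positive. Scaled by these markers, AT2 RNA alone would give 1.201 CPM of Il33 in Cherry_Negative alveolar fibroblasts and 0.149 CPM in those of Cherry_Positive. For adventitial fibroblasts it would give 0.983 and 0.128 CPM, against measured levels of 88.2 and 477 CPM.

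Il1a, alone among the 6, was highest in capillary cells, and it was among the 10 leading genes of the Car4 cluster, although it was not used to cluster. Car4 capillary cells held it at 264 CPM (78 UMIs in 82 cells) in Cherry_Positive and at 211 CPM (183 to 242; 202 UMIs in 304 cells) in Cherry_Negative, and general capillary cells at 4.38 and 4.54 CPM. The intervals of the Car4 class lie above those of every other class with at least 20 cells in each library. Leukocytes followed at 79.3 and 66.7 CPM and arterial cells of Cherry_Negative at 65.5 CPM. In Cherry_Positive leukocytes 1 cell held 71.4% of the 14 UMIs. Of the 2 arterial clusters, the one led by Vwf, Cytl1 and Bmx (46 Cherry_Negative cells) held 125 CPM (72.6 to 200) and the one led by Cxcr4, Esm1 and Efnb2 (98 cells) 39.2 CPM (20.2 to 68.4). An Il1a UMI was found in 29.1% and 32.9% of thinned Car4 capillary cells (39.0% and 36.8% unthinned). Alveolar fibroblasts showed 0.118% and 0.247% after thinning, and adventitial fibroblasts held none in 129 and 114 cells, which allows up to 3.48 and 5.40 CPM by a floor of 3 counts per library.

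Csf1 was the most widely spread of the 6. Among classes with at least 20 cells, its Cherry_Positive levels ran from 99.2 CPM in pericytes (62.9 to 149) through 82.2 in alveolar fibroblasts, 77.8 in adventitial fibroblasts and 55.5 in AT2 cells to 43.3 in myofibroblasts, and each of these neighbours overlaps the next. The AT2 value came from 10 UMIs, 50% of them in 1 of 22 cells. In Cherry_Negative the levels were 66.6 CPM in adventitial fibroblasts, 59.3 in leukocytes (8 UMIs), 49.7 in arterial, 37.6 in alveolar fibroblasts, 36.5 in venous cells, 30.3 in pericytes, 26.0 in general capillary cells and 19.6 in myofibroblasts. Again no neighbours in this order were apart. AT2 cells of Cherry_Negative were low, at 4.85 CPM, and Car4 capillary cells stood at 3.39 and 12.5 CPM.

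Tnfsf13b lay almost wholly in fibroblasts in both libraries: 76.6% and 73.4% lay in alveolar fibroblasts, 12.5% and 16.5% in adventitial fibroblasts and 9.26% and 8.54% in myofibroblasts. Its levels in that order were 177, 153 and 78.5 CPM in Cherry_Positive and 145, 93.6 and 75.4 in Cherry_Negative. In both libraries alveolar fibroblasts were highest. Adventitial fibroblasts overlap alveolar fibroblasts in Cherry_Positive and myofibroblasts in Cherry_Negative. No UMI was seen in Car4 capillary cells of either library, and general capillary cells had 0 UMIs in 119 cells and 2 in 900. Leukocytes, the other known source of BAFF, held 3 and 0 UMIs.

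**Figure D1:**
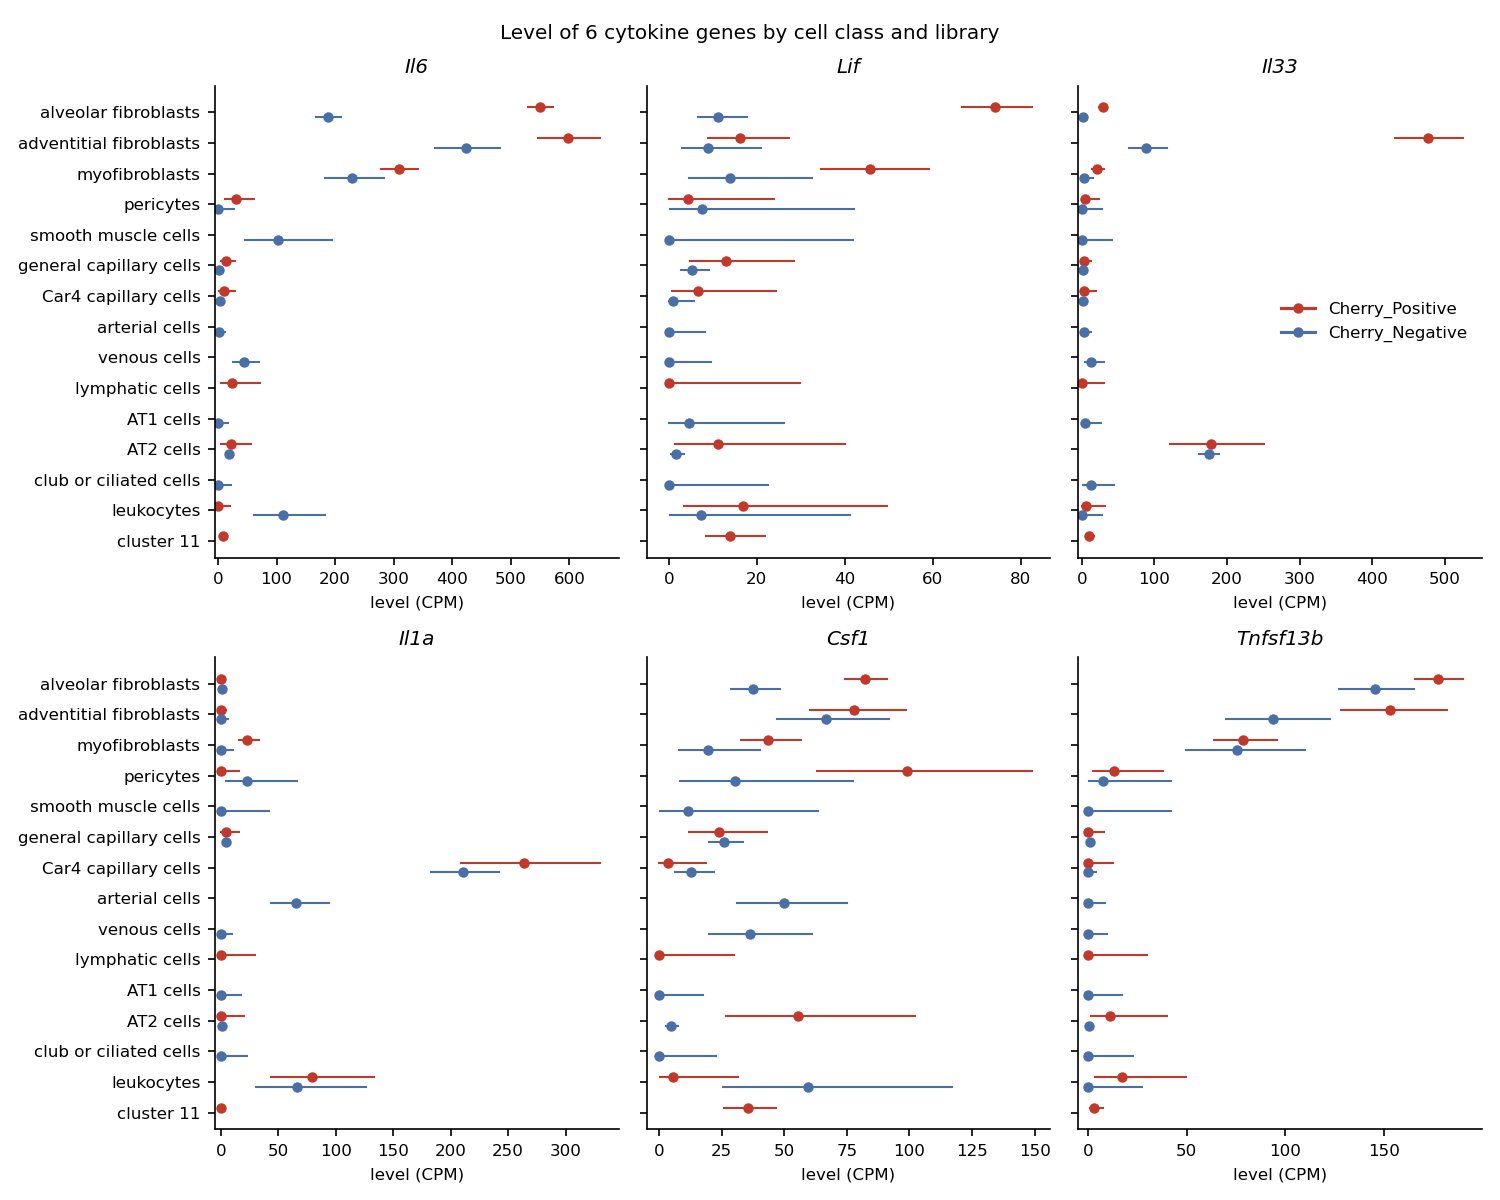
Level of each gene (x axis, UMIs of the gene per 1000000 UMIs of the class) in each cell class with at least 20 cells in a library (y axis). Points are the levels of the Cherry_Positive (red) and Cherry_Negative (blue) library, and lines are exact 95% Poisson intervals. Il6 and Tnfsf13b are high in the fibroblast classes, Il33 in adventitial fibroblasts and AT2 cells and Il1a in Car4 capillary cells.

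The share of a gene's UMIs that a class gave differed between the libraries. Alveolar fibroblasts gave 72.9% of Il6 UMIs, 76.2% of Lif UMIs and 62.4% of Csf1 UMIs in Cherry_Positive, where they held 46.3% of all UMIs. In Cherry_Negative, where they held 13.9% of all UMIs, they gave 40.6%, 34.0% and 22.0%. AT2 cells gave 89.5% of Il33 UMIs in Cherry_Negative and 5.11% in Cherry_Positive, where adventitial fibroblasts gave 65.7%. Il33 over all kept cells was 63.6 CPM in Cherry_Positive and 63.2 CPM in Cherry_Negative. The nearly equal sums thus came mainly from different classes, where Cherry_Positive had 22 AT2 cells and Cherry_Negative 448. Car4 capillary cells gave 61.4% and 77.7% of Il1a UMIs.

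**Figure D2:**
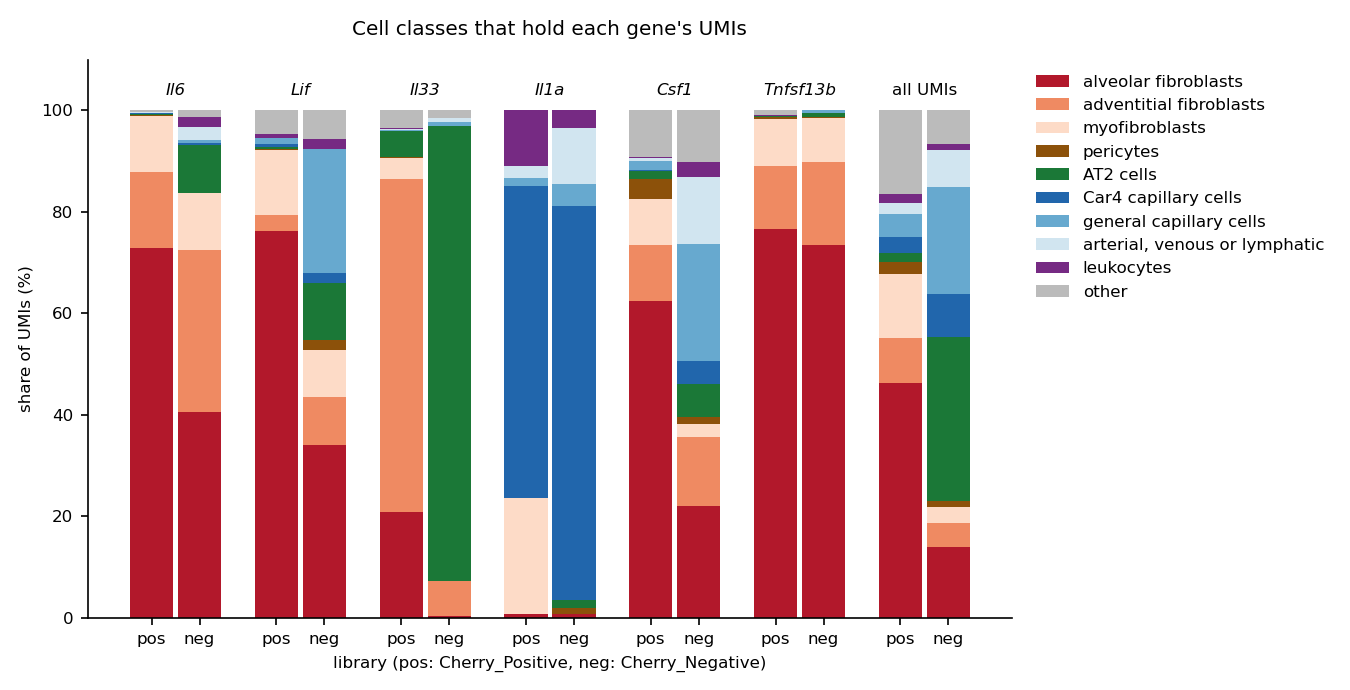
Share of each gene's UMIs (y axis, percent) that lay in each cell class, for Cherry_Positive (pos) and Cherry_Negative (neg), with the share of all UMIs at the right. Green marks AT2 cells, which hold 89.5% of Il33 UMIs in Cherry_Negative, and dark blue marks Car4 capillary cells, which hold 61.4% and 77.7% of Il1a UMIs.

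Alveolar fibroblasts of Cherry_Positive held more Il6, Lif, Il33 and Csf1 than those of Cherry_Negative. A gene was called higher or lower where its levels were at least 2-fold apart and the 95% interval of their ratio did not hold 1, among genes with 10 or more UMIs, both libraries counted. By this rule 4 of the 5 genes measured were higher and 0 lower, while 5.28% of 11456 genes were higher and 7.67% lower. Under the trimmed mean scaling of edgeR (TMM), the higher genes were 55.1% of all genes called, against 40.8% under library sums, and the same 4 of the 5 were higher. Il6 was 2.94-fold higher (2.61 to 3.33; 2513 against 299 UMIs), Lif 6.59-fold (4.11 to 11.3; 339 against 18 UMIs) and Csf1 2.19-fold (1.66 to 2.92; 375 against 60 UMIs). Il33 had a ratio of 15.2 (5.07 to 74.5; 130 against 3 UMIs). Tnfsf13b differed by 1.22-fold (1.05 to 1.42), under the 2-fold limit, and Il1a had 1 and 2 UMIs. The median log2 ratio of the 5 was 1.55, against -0.10 over all genes measured in the class. No single cell carried these values: the richest cell held 2.19% of the Cherry_Positive Il6 UMIs, 2.95% for Lif, 2.13% for Csf1 and 10% for Il33. In the same cells, the summed markers of alveolar fibroblasts were 6246 CPM in Cherry_Positive and 17941 in Cherry_Negative. A list of 8 carcinoma markers had 5 of 8 seen in either library, with Krt17, Krt6a and Cldn4 at 0, and summed to 1010 against 190 CPM. The part of either in the ratios was not tested. When each library was clustered by itself, Lif was 3.29-fold (1.94 to 5.86) and Il6 2.01-fold (1.76 to 2.31), and Csf1 at 1.60-fold (1.16 to 2.22) was under the limit. Tnfsf13b was 1.96-fold (1.68 to 2.29) by that clustering, still under it.

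Adventitial fibroblasts, the collagen-rich cells of the sheath around vessels and airways, differed mainly in Il33. Here 1 of 5 genes measured was higher and 0 lower, beside 2.66% of 8804 genes higher and 3.29% lower. Il33 was 477 CPM in Cherry_Positive and 88.2 in Cherry_Negative, 5.41-fold apart (4.01 to 7.43; 411 against 49 UMIs). Its richest cells held 15.3% and 10.2% of these UMIs, and the thinned share of cells with Il33 was 36.4% against 10%. Il6 differed by 1.41-fold (1.21 to 1.66), but after thinning its log2 ratio was -0.03, so that no direction holds for it. Tnfsf13b differed by 1.64-fold (1.18 to 2.30) and Csf1 by 1.17-fold (0.770 to 1.79). Lif had 14 and 5 UMIs and Il1a had none. The summed markers of the class were 16515 CPM in Cherry_Positive and 19581 in Cherry_Negative.

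In myofibroblasts 4 of 6 genes measured were higher and 0 lower, beside 3.59% of 8796 genes higher and 6.11% lower. Of all genes called, the higher were 37.0% under library sums and 56.6% under TMM. Lif was 45.7 against 13.97 CPM, 3.27-fold (1.32 to 10.5; 57 against 5 UMIs). Csf1 was 43.3 against 19.6 CPM, 2.21-fold (1.004 to 5.77; 54 against 7 UMIs), at the edge of the rule: the call was lost under 8 of the 12 other settings tried, among them 5% of free RNA taken off (0.925 to 5.36). Il33 had 26 UMIs against 1, a ratio of 7.46 (1.23 to 306), and Il1a had 29 against 0, at least 2.77-fold higher by the floor of 3 counts. The last pair rest on few cells: 1 cell held 50% of the Il33 UMIs, and 3 cells held all Il1a UMIs, 1 of them 69.0%. Without the richest cell, 2 genes, Lif and Csf1, stayed past the limits. After thinning to 2000 UMIs, which kept 242 of 243 Cherry_Positive and 97 of 132 Cherry_Negative cells, none did. Lif was then 1.84-fold higher (0.686 to 6.21). At a finer clustering, which set apart a chemokine-rich group of myofibroblasts almost wholly of Cherry_Positive, Lif (2.78-fold, 1.09 to 9.07) and Il1a stayed past the limits, while Csf1 was 1.88-fold (0.818 to 5.01) and Il33 3.86 (0.549 to 167). Il6 at 1.35-fold (1.06 to 1.73) and Tnfsf13b at 1.04-fold (0.674 to 1.66) were under the 2-fold limit.

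Pericytes, the contractile cells on capillaries, had 1 gene measured of the 6. Csf1 was 99.2 against 30.3 CPM, 3.28-fold higher (1.12 to 13.0; 23 against 4 UMIs). After thinning to 2000 UMIs, with 11 against 1 UMIs, the interval held 1 (0.708 to 209.6) and the call was lost. In the class 4.36% of 5137 genes were higher and 5.12% lower, and the higher were 46.0% of genes called under library sums and 66.6% under TMM. Il6 had 7 UMIs against 0.

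In the capillary classes 1 gene was called, but several ratios there have wide intervals, so that a gene not called may still differ. In general capillary cells 1 of 4 genes measured was higher and 0 lower, beside 2.56% of 9889 genes higher and 2.37% lower. This was Il6, with 6 against 4 UMIs (13.1 against 1.65 CPM; 7.95-fold, 1.88 to 38.3), and it did not pass when 5% of each library's sum was taken as free RNA. Over all kept cells Il6 was 350 CPM in Cherry_Positive and 64.1 in Cherry_Negative. Lif had 6 and 13 UMIs (ratio 2.45, 0.762 to 6.90) and Il1a 2 and 11 (0.963, 0.104 to 4.41). Csf1 differed by 0.925-fold (0.440 to 1.77). In Car4 capillary cells 0 of 2 genes measured were higher or lower, beside 1.54% of 8226 genes higher and 1.6% lower. Il1a was 1.25-fold apart (0.951 to 1.63), so that a difference of 2-fold lies outside its interval. Csf1 had 1 and 12 UMIs (ratio 0.270, 0.00632 to 1.83).

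**Figure D3:**
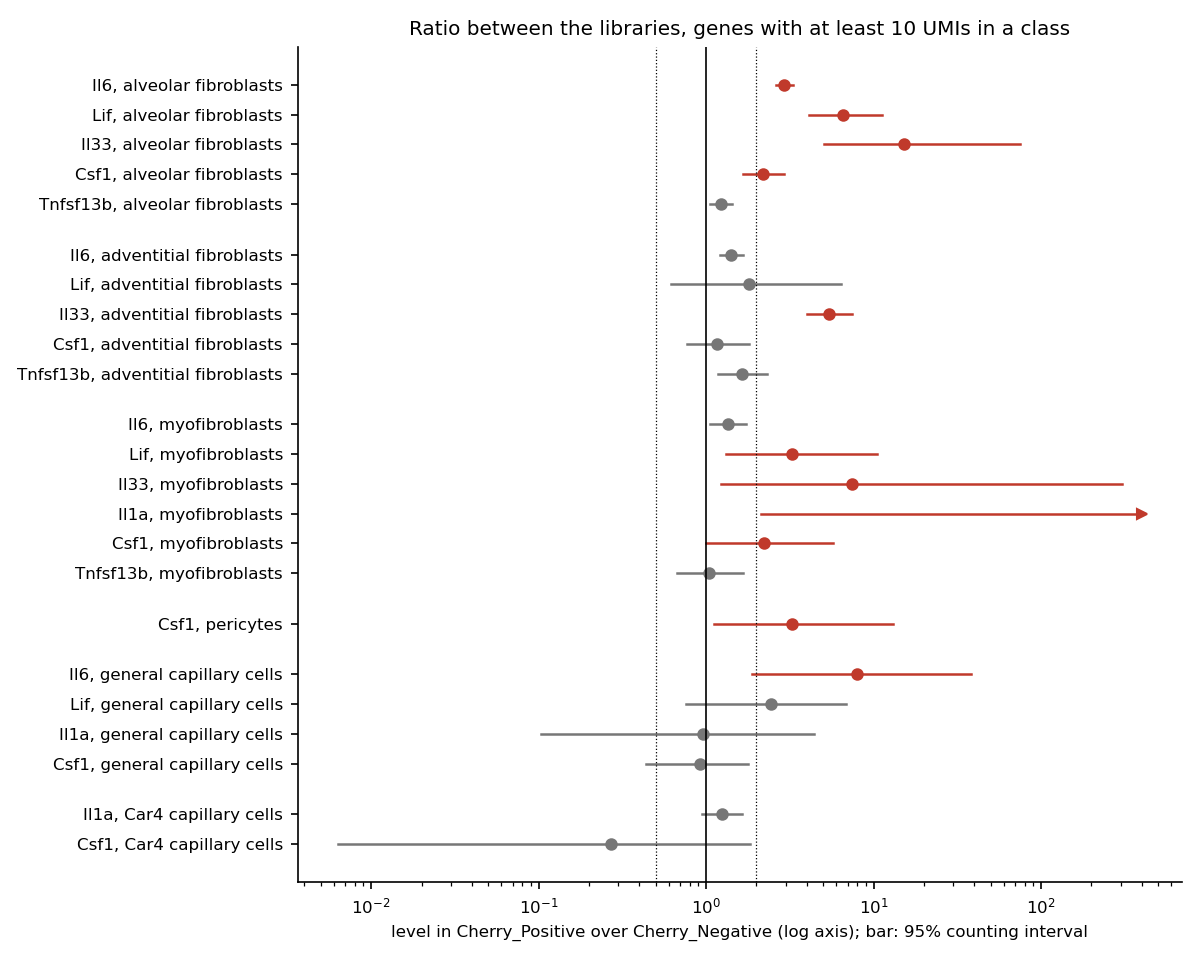
Ratio of the level in Cherry_Positive to that in Cherry_Negative (x axis, log scale) for each gene with at least 10 UMIs in a compared class (y axis). Points are ratios, lines are 95% counting intervals, red marks ratios at least 2-fold from 1 whose interval does not hold 1, and the arrow marks Il1a in myofibroblasts, with 29 UMIs against 0. The 4 red ratios of alveolar fibroblasts run from 2.19 to 15.2.

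Within alveolar fibroblasts the genes differed by cluster. Cluster 2, led by Slc7a10 and Tcf21, held most Cherry_Negative cells of the class (116 Cherry_Positive and 322 Cherry_Negative cells). Cluster 5, led by Tnfsf13b, Steap4 and C4b, had 219 and 93 cells, cluster 6, led by Fam26f, Cxcl10 and Saa3, had 282 and 7, and cluster 7, led by Tnc and Tfpi2, had 247 and 29. Cluster 20 had 1 and 16 cells. The 10 leading genes of clusters 6 and 7 hold no marker of the class. These clusters were placed in it because 8 and 10 of its 10 markers were detected, at lower levels than in cluster 2. Over clusters 2, 5, 6 and 7 of Cherry_Positive, Il6 was 133, 526, 803 and 383 CPM, and no counting intervals of these 4 overlap. These intervals do not cover the spread between cells, and 1 cell held 43.3% of the 60 Il6 UMIs of cluster 2. Lif was 2.22, 53.5, 92.8 and 93.9 CPM in the same order, where clusters 6 and 7 overlap. Il33 was 4.44, 37.7, 47.6 and 3.16 CPM, so that it was low in cluster 7, where Lif was high. Csf1 was highest in cluster 6, at 120 CPM, against 39.98, 74.6 and 53.6 CPM in clusters 2, 5 and 7. Tnfsf13b had its peak in cluster 5 of both libraries, at 384 and 299 CPM, and its next level was 133 CPM, in cluster 2 of Cherry_Positive. After thinning, 50.2% and 40.9% of cluster 5 cells held a Tnfsf13b UMI.

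Clusters 2 and 5 were the only ones with at least 50 cells of each library. In cluster 2, 0 of the 3 genes measured were past the limits, beside 1.51% of 8863 genes higher and 2.11% lower. Il6 was 133 against 114 CPM (ratio 1.17, 0.842 to 1.62), Tnfsf13b 133 against 101 CPM (1.32, 0.944 to 1.84), Csf1 39.98 against 19.96 CPM (2.003, 0.999 to 3.99), and Lif had 1 and 5 UMIs. The richest cell held 43.3% of the Cherry_Positive Il6 UMIs and 13.2% of those of Cherry_Negative. In cluster 5, 2 of 5 genes measured were higher, beside 2.33% of 8963 genes higher and 3.14% lower. Il6 was 526 against 206 CPM (2.55, 2.03 to 3.24) and Il33 had 43 against 2 UMIs (ratio 7.69, 2.003 to 65.5). Lif (1.82, 0.969 to 3.71), Csf1 (1.05, 0.681 to 1.66) and Tnfsf13b (1.28, 1.05 to 1.58) did not pass. In cluster 7, Lif had 119 against 1 UMIs (ratio 7.91, 1.39 to 315) and Il6 was 383 against 629 CPM (ratio 0.610, 0.458 to 0.825) over 29 Cherry_Negative cells. Clusters 6 and 7 held most Cherry_Positive cells of the class and few of Cherry_Negative.

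**Figure D4:**
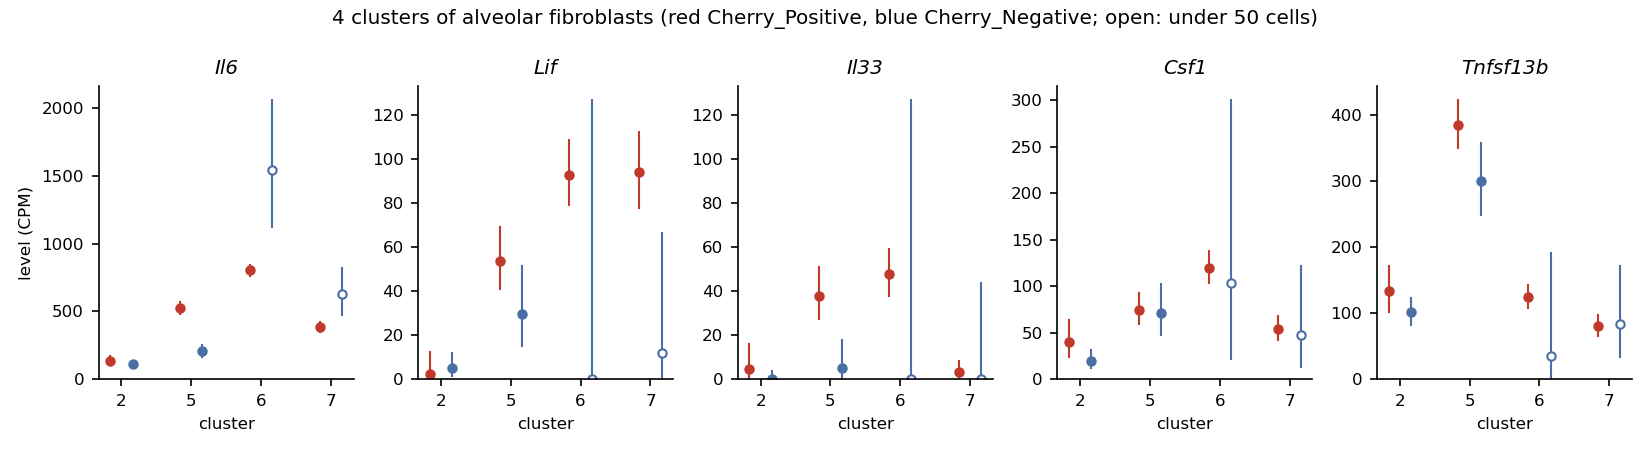
Level of 5 of the genes (y axis, UMIs of the gene per 1000000 UMIs of the cluster) in clusters 2, 5, 6 and 7 of alveolar fibroblasts (x axis). Points are the Cherry_Positive (red) and Cherry_Negative (blue) levels, open where the cluster has under 50 cells of that library, and lines are exact 95% Poisson intervals. Tnfsf13b peaks in cluster 5 and Il6 rises from cluster 2 to cluster 6.

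At 2000 UMIs per cell, most fibroblasts in which any of the 6 transcripts was seen showed 1. A transcript in a cell is easily missed at this depth, so these counts do not show that cells held only 1. After thinning to 2000 UMIs, 39.1% of Cherry_Positive alveolar fibroblasts showed 1 of the genes and 18.9% showed 2 or more, against 30.6% and 5.93% in Cherry_Negative. In Cherry_Positive adventitial fibroblasts 35.7% of cells showed 1 and 31.0% showed 2 or more, the latter against 6.36% in Cherry_Negative. In myofibroblasts 6.61% against 2.06% showed 2 or more. In Cherry_Positive alveolar fibroblasts 31 cells held both Il6 and Lif, where unrelated shares would give 20.2, and 45 held both Il6 and Csf1, where they would give 31.9. Il6 and Tnfsf13b met in 68 cells against 64.4, and Il33 and Csf1 in 1 against 3.32. Il6 and Lif met in 7 cells against 4.62 in cluster 5, in 18 against 11.7 in cluster 6 and in 6 against 5.67 in cluster 7. Il6 and Csf1 met in 4 cells against 0.965 in cluster 2, in 6 against 7.07 in cluster 5, in 29 against 23.5 in cluster 6 and in 6 against 4.62 in cluster 7. In Cherry_Positive adventitial fibroblasts Il6 and Il33 met in 19 cells against 12.8, and in those of Cherry_Negative in 0 against 2.4. These counts are small and describe this library.

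The receptors of these cytokines lay partly in the same stromal classes and partly in the few leukocytes. Il6st, the gp130 chain, was highest in venous cells of Cherry_Negative at 331 CPM and stood at 156 against 97.1 CPM in alveolar fibroblasts. Il6ra, the IL-6 binding chain, was the 1 of 6 IL-6 family receptors called in alveolar fibroblasts, and it was lower in Cherry_Positive, at 19.9 against 56.4 CPM (ratio 0.354, 0.261 to 0.479). Lifr, the LIF receptor, was highest in venous cells (112 CPM) and was 35.9 against 45.1 CPM in alveolar fibroblasts. Osmr, the receptor chain for oncostatin M, was 123 against 82.0 CPM in alveolar fibroblasts. In myofibroblasts 2 of the 6 receptors were lower, beside 6.11% of all genes measured there. These were Il11ra1 at 129 against 296 CPM (0.436, 0.339 to 0.562) and Cntfr at 40.9 against 103.3 CPM (0.396, 0.254 to 0.621). Il1r1, the IL-1 receptor, was highest in adventitial fibroblasts at 84.7 and 59.4 CPM, and in myofibroblasts it was 44.1 against 8.38 CPM (ratio 5.26, 1.71 to 26.3; 55 against 3 UMIs). Car4 capillary cells, which held Il1a, had the IL-1 receptor accessory chain Il1rap at 27.1 and 20.9 CPM. In alveolar fibroblasts 2 of 6 IL-1 family receptors and adaptors measured were higher, Il1r2 (2.38-fold) and Il1rap (2.27-fold), and 0 lower. Over all genes of that class 5.28% were higher and 7.67% lower.

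Receptors for the other cytokines were rare in these CD45- cells. Il1rl1, the IL-33 receptor, gave 6 UMIs over both libraries, all 6 in leukocytes. The BAFF receptors Tnfrsf13c and Tnfrsf13b gave 14 and 29 UMIs, 14 and 9 of them in leukocytes, and Tnfrsf17 gave 0. Csf1r gave 61 UMIs, of which 22 were in leukocytes and 25 in the 57 AT1 cells of Cherry_Negative, at 117 CPM. Csf2ra and Csf2rb were the only colony-stimulating factor receptors measured in alveolar fibroblasts. Both were higher in Cherry_Positive, at 2.87-fold and 9.45-fold. Under TMM the ratio of Csf2rb was 10.4, with a wide interval (1.71 to 426). Csf2rb gave 75 UMIs over both libraries, 37 of them in leukocytes. The other colony-stimulating factors were sparse: Csf2 gave 126 UMIs over both libraries, Csf3 gave 116, and Il34, the second ligand of Csf1r, 276. In alveolar fibroblasts Il34 was 22.6 against 6.89 CPM (3.28-fold, 1.76 to 6.77). Of 8 genes measured there from a list of other stromal cytokines for leukocytes, 1 was higher and 2 lower. Over all genes of the class, 5.28% were higher and 7.67% lower. Cxcl12 was 2.13-fold higher, and the ratios of Flt3l and Tnfsf10 were 0.470 and 0.459. Under TMM, Cxcl12 and Il15 were higher and 0 lower.

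Genes of the pathways that these cytokines use or answer to were read from 3 lists. Of 8 STAT3 feedback and target genes read, 2 were higher in alveolar fibroblasts and 1 lower. Cebpd, also on this list, did not match exactly 1 row and was left out. Timp1, an inhibitor of matrix proteases, was 2192 against 235 CPM (9.31-fold, 8.40 to 10.4) and Bcl3 64.4 against 18.2 CPM (3.55-fold, 2.42 to 5.39). Socs3, the feedback inhibitor of IL-6 signalling, was lower in Cherry_Positive, at 272 against 589 CPM (ratio 0.463, 0.425 to 0.504), but its ratio of 0.509 under TMM was not past the 2-fold limit. The other 5 did not pass, and the median log2 ratio of the list was 0.58. Of 10 NF-kB feedback genes 4 were higher and 0 lower, with a median of 0.81: Sod2 (827 against 244 CPM, 3.40-fold), Bcl3, Nfkb2 (63.5 against 25.7 CPM) and Relb (76.0 against 35.1 CPM). Of 7 interferon gamma targets 6 were higher, with a median of 2.61, among them Cxcl10 at 3695 against 123 CPM and Cd274 at 46.7 against 1.88 CPM. Over all genes of the class, 5.28% were higher and 7.67% lower, and the median was -0.10.

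In the other 5 classes no gene of these 3 lists was lower. Over all genes, the share lower ran from 1.6% in Car4 capillary cells to 6.11% in myofibroblasts, so that lists this short would hold few. The share of all genes higher ran from 1.54% in Car4 capillary cells to 4.36% in pericytes. In adventitial fibroblasts Timp1 was 1346 against 333 CPM and Sod2 350 against 113 CPM, and 5 of 7 interferon gamma targets were higher. In myofibroblasts 2 of 10 NF-kB genes, Bcl3 and Sod2, were higher, or 5 under TMM, and 3 of 8 STAT3 genes (Bcl3, Pim1 and Timp1) were, as were 5 of 7 interferon gamma targets. In pericytes Bcl3 had 34 UMIs against 1, Sod2 was 716 against 129 CPM, and 4 of 10 NF-kB genes and 6 of 7 interferon gamma targets were higher. General capillary cells showed 5 of 7 interferon gamma targets higher and 1 of 10 NF-kB genes, Bcl3, at 96.3 against 46.3 CPM, or 2 under TMM, with Nfkb2. Car4 capillary cells, where 0 of 2 cytokine genes measured were called, had 2 of 7 interferon gamma targets higher, Cxcl10 and Cxcl9. The list median there was -0.02. Il11, a further ligand of the IL-6 family, had 23 UMIs against 1 in alveolar fibroblasts, 18 against 2 in adventitial fibroblasts and 13 against 0 in pericytes. Il11, Il34, Cxcl12, Flt3l, Tnfsf10, Il15, Csf2ra, Csf2rb, Socs3, Nfkb2 and Relb, and Bcl3 in myofibroblasts, were chosen for the text after their values were seen.

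Across 17 pairs of class and library with at least 50 cells, each cytokine gene had its own nearest neighbours by Pearson r of log2(CPM + 10). For Il6 these were Gas7 (r = 0.96), Igf1 (0.96) and the complement gene C4b (0.95), and for Tnfsf13b Col6a3 (0.98), Kcne4 (0.97) and C4b (0.97). Lif was closest to Tnc (0.90), Thbs1 (0.86) and Nfil3 (0.84), Il33 to Tspan11 (0.89), Anpep (0.89) and Hmgcs1 (0.81), Il1a to Endou (0.89), Cdkn2a (0.86) and Nhlrc2 (0.86), and Csf1 to Plac8 (0.85), Tmsb10 (0.85) and Gm9844 (0.85). Among the 6 themselves, Il6 and Tnfsf13b were closest, at 0.93, and Il6 and Il1a stood at -0.41. The points share libraries, depth and free RNA, so these values describe the pattern only.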

How the data were processed

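The data are UMI counts per gene and cell barcode, deposited by the authors as 1 matrix per library. Lung cells were prepared with the Chromium Single Cell 3ʹ kit and sequenced on a HiSeq4000, per the labels' protocols. Cell Ranger 2.1.1, Seurat 4.0.2, R 4.0.3 and the build mm10 are named without a role in the submitters' processing notes, and the sources used here do not give the settings of the aligner.

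From these counts, cells with at least 500 genes and at most 10% mitochondrial UMIs were kept, and doublets called by Scrublet at an assumed rate of 2% were removed (0.226% and 0.249% of cells). Cells of both libraries were clustered with scanpy 1.11.5 (2000 variable genes without the 6 cytokine genes, 30 components, 15 neighbours, Leiden resolution 1, seed 0), and mixed clusters were split at resolution 0.5, which was chosen after the clusters were seen. A cluster took a name from marker lists where at least 3 markers were detected. Names may differ from those of the study. Counts were summed per class and library and given as counts per 1000000 UMIs (CPM) with exact Poisson intervals. Ratios have intervals from exact binomial shares at 95% confidence. With 1 library per group no test across samples was possible. The call rule was also run on simulated Poisson class sums, the model that it assumes. That run cannot show how often the rule errs where single cells hold many of a gene's UMIs. A level of 0 was bounded by a floor of 3 counts. TMM factors came from edgeR 4.0.16.

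The 6 genes and all lists were chosen with earlier results of these data known. Named beside the 6 were list genes with at least 30 UMIs in the class that passed the 2-fold rule (at most 10 a class, by the interval bound nearest 1), receptors with at least 30 UMIs in any class and the 3 genes most alike. Alternatives changed the cell filter, doublets, resolution, clustering genes, joint clustering, free RNA, scaling, depth and the richest cell. Sequences and starts are from RefSeq GRCm38.p6, where all 6 genes matched.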

Additional observations from a re-analysis of the deposited data

Results flagged for a closer look

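Il6 in alveolar fibroblasts went opposite ways between clusters. It was 2.55 times as high in Cherry_Positive as in Cherry_Negative in cluster 5 (526 against 206 CPM). The ratio was 0.520 in cluster 6 (803 against 1544 CPM) and 0.610 in cluster 7 (383 against 629 CPM). The Cherry_Negative values of clusters 6 and 7 came from 7 and 29 cells with 45 and 53 Il6 UMIs, and 1 cell held 71.1% and 37.7% of these. With 1 library per group, the difference between the clusters was not tested.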

How the results depend on the processing

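Counts of the 6 genes at least 2-fold apart were recomputed under 11 other ways of filtering, clustering and scaling the cells and, chosen after the data were seen, without the 13 shared barcodes and for clusters 2 and 5 of alveolar fibroblasts alone. Adventitial fibroblasts gave 1 gene, Il33, and Car4 capillary cells 0 under every one run. Alveolar fibroblasts gave 4 genes, but 3 with each library clustered by itself (without Csf1), 0 in cluster 2 alone and 2 in cluster 5 alone, where fewer cells entered. Myofibroblasts gave 4, but 3 (without Csf1) with no cell filter, a stricter one, resolution 0.5, each library clustered by itself, 5% of free RNA subtracted or no shared barcodes, 2 at resolution 2 (Lif and Il1a), 2 without the richest cell (Lif and Csf1) and 0 after thinning. Pericytes gave 1, and 0 after thinning. General capillary cells gave 1, Il6 (Lif in its place under the stricter filter), and 0 with 5% of free RNA subtracted, after thinning and without the richest cell. The log2 ratio of Lif in alveolar fibroblasts was -0.72 in cluster 2 alone, from 1 and 5 UMIs. Thinning and single clusters leave fewer UMIs, and for the others the cause was not tested. Of 286 log2 ratios under alternatives, 269 stayed within their counting interval, 16 moved and 1, of a gene called in the main setting, changed sign. Sign changes were counted apart only for called genes. That of Il6 in adventitial fibroblasts after thinning is thus among the 16. Scaling by TMM shifted the log2 ratios of pericytes by 0.24, of myofibroblasts by 0.19 and of alveolar fibroblasts by 0.14, and moved no call of the 6 genes. No paired analysis was possible because each group is 1 library with no replicate number. Intervals cover counting error only, not animals, sorting or library preparation.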

Other observations

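Mesothelial cells, the lining of the lung surface, were too few to compare but held Il33 and Csf1. Il33 gave 8 UMIs in 11 Cherry_Positive cells (85.9 CPM, 3 cells with a UMI) and 7 in 12 Cherry_Negative cells (104 CPM, 5 cells with a UMI). Csf1 gave 6 and 9 UMIs (64.4 and 134 CPM). None of the 23 cells held an Il6 or Il1a UMI.

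Cluster 11, which was left unnamed and is led by S100a4, Ube2c, Spp1 and Birc5, had 129 Cherry_Positive and 10 Cherry_Negative cells. Csf1 led among the 6 genes there, at 35.3 CPM (48 UMIs) and 76.4 CPM (18 UMIs, 33.3% in 1 cell). In Cherry_Positive its cells held Lif at 13.97 CPM, Il33 at 9.56, Il6 at 8.82 and Tnfsf13b at 2.94, with no Il1a UMI.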
